A study of Mus musculus with 6 samples.

Results

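Genes outside the SOX family that are known for maintaining or inducing pluripotency were examined in benign skin tumour cells with and without Sox2. The 10 genes were Pou5f1, Nanog, Klf4, Klf5, Myc, Lin28b, Esrrb, Sall4, Hmga2 and Tbx3, and they were taken by name, with every probe set annotated to exactly 1 of these symbols. A probe set is a group of short DNA probes on the array that reads 1 transcript region. They had 23 probe sets, out of 34945 single-gene probe sets of 18193 genes on the array. RNA came from sorted tumour epithelial cells of papillomas that had been induced with chemicals in mice, and was hybridised to Affymetrix whole-genome expression arrays, 3 for Sox2cKO and 3 for CTRL. Sox2cKO cells came from K14CREER:SOX2fl/fl mice, in which a Cre enzyme under the keratin 14 promoter, active in basal keratinocytes, deletes the floxed Sox2 gene once tamoxifen is given. CTRL cells came from control mice whose alleles the labels do not name. Both groups had tamoxifen for 1 week, and neither age nor the number of mice behind an array was stated. Cells were sorted as positive for Epcam and alpha6 integrin and negative for CD45, CD31 and CD140a.

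Pluripotent stem cells of the early embryo can form every tissue of the body. The transcription factors Oct4 (encoded by Pou5f1), Sox2 and Nanog hold that state by binding many of the same enhancers, often at sites where a SOX motif lies beside an octamer motif. Esrrb, Sall4, Tbx3, Klf4 and Klf5 extend this network in mouse embryonic stem cells, Myc drives growth and ribosome production, and the RNA-binding protein Lin28b blocks maturation of the let-7 microRNAs, which repress Hmga2 among other transcripts. Several of these genes also have roles outside the embryo: Klf4 is needed for the skin barrier, and Klf5 and Myc act in proliferating epithelia.

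Promoter sequences are shown for a pair of genes that read near background (Pou5f1 and Nanog) and a pair that read far above it (Klf4 and Hmga2). In the windows shown, Klf4 is rich in CG dinucleotides (40) and Nanog poor (4), while Hmga2 (12) has only slightly more than Pou5f1 (11). The sequences are RefSeq windows of the GRCm38.p6 build, 300 bases each, running 5′ to 3′ on the gene's strand across the annotated start, and capitals mark CG dinucleotides. The windows lie at chr17:35505782-35506081 (plus strand) for Pou5f1, chr6:122707239-122707538 (plus strand) for Nanog, chr4:55532426-55532725 (minus strand) for Klf4 and chr10:120476420-120476719 (minus strand) for Hmga2.
Pou5f1: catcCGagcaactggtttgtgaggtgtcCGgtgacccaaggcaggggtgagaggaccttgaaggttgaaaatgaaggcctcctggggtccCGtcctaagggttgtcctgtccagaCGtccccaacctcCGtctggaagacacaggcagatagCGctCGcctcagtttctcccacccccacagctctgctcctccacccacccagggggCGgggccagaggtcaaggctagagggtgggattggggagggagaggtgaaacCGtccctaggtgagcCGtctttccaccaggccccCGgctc
Nanog: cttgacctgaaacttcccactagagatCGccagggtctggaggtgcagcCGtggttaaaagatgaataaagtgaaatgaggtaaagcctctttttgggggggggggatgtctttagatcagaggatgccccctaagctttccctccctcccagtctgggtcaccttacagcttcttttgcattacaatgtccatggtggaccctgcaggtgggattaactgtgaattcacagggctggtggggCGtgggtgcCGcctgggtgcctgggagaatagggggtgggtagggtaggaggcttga
Klf4: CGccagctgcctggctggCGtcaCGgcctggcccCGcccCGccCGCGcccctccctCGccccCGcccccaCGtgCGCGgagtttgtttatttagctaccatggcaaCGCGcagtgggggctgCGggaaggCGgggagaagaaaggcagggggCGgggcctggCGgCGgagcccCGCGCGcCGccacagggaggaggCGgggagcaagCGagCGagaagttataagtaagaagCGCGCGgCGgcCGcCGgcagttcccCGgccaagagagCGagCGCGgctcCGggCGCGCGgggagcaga
Hmga2: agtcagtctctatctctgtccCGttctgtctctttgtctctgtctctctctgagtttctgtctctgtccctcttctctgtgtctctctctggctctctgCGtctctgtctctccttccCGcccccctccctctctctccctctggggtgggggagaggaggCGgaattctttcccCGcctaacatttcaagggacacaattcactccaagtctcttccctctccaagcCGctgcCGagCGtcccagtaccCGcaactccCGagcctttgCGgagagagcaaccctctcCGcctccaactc

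Windows were matched for 6 of the 10 genes: Pou5f1, Nanog, Klf4, Lin28b, Esrrb and Hmga2. Klf4 had 40 CG dinucleotides in its window, and 3.46% of all 32851 windows had more. Hmga2 had 12. Pou5f1 had 11 in the window shown and 6 in a second one, Lin28b had 8, both Esrrb windows had 7 and both Nanog windows had 4. The median window in the table had 7, and that of Sox2 had 27. Across all genes on the array with a window, taken by their window richest in CG, the share with a probe set that passed the level filter described below was 44.1% of 4048 genes with up to 8 CG dinucleotides, 77.9% of 4144 genes with 9 to 20, and 89.3% of 6260 genes with more than 20. These shares describe the array as a whole, and no test of the members was made with them.

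**Figure D1:**
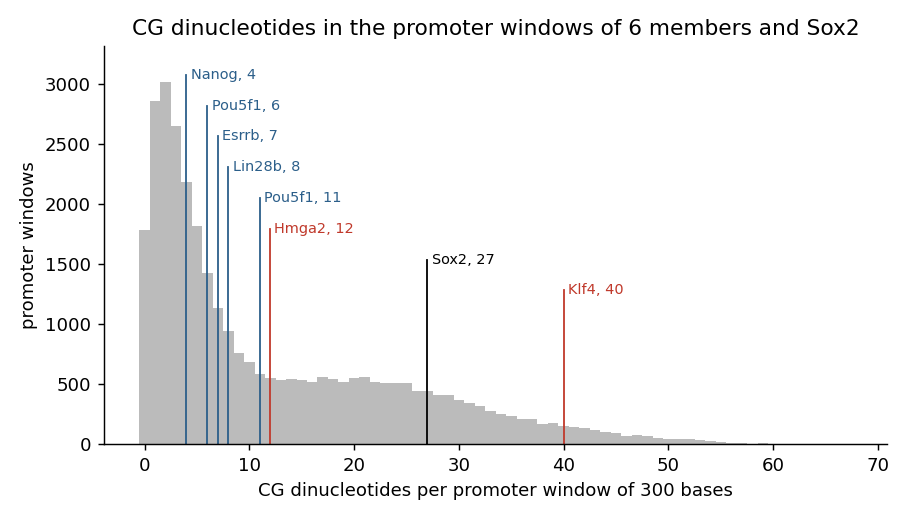
Number of CG dinucleotides (x axis) in the promoter windows of all genes (grey bars, number of windows on the y axis), with vertical lines at the windows of 6 members and Sox2, whose heights only separate the names (red for members that read far above background, blue for the other members, black for Sox2). Klf4, with 40, stands far to the right, and Nanog, with 4, lies near the peak of the distribution.

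The Nanog promoter also carries the joint SOX and octamer site known from embryonic stem cells, which is shown because Sox2, the factor deleted here, is one of its known partners. The site lies at chr6:122707414-122707427 on the minus strand, and capitals mark it in the stretch below, which is printed on the plus strand.
Nanog site: cagcttctTTTGCATTACAATGtccatggt
The pattern searched, on both strands, was CATTGT, then 1 base of any kind, then ATGCAAA. This pattern was added after the sequences had been read, and it holds only 7 of the octamer bases, as the Nanog site does. A match in Nanog was therefore known beforehand, and its rarity is no measure of how specific the site is. It was found in 2 of 32851 windows (0.00609%), and both were the overlapping windows of Nanog. The SOX motif CATTGT alone, which the joint pattern contains, was found in 12.6% of all windows and in windows of Nanog, Pou5f1 and Esrrb, and the octamer ATGCAAAT was found in 1.74% of all windows and in none of the members'. A match in a window is a description of its letters only.

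Values are the deposited log2 intensities. Every array had its median between 5.42 and 5.46, and correlations between arrays lay between 0.965 and 0.989. Control probe sets for bacterial transcripts that had not been added averaged 3.30 to 3.44 per array. To be tested, a probe set had to exceed the 40th percentile of the array, which lay between 4.90 and 4.94, on at least 3 of 6 arrays. As a second measure of background, 54 probe sets of 36 genes of other tissues, such as liver, pancreas, pituitary and testis products, were read on the same arrays. Their means ran from 3.01 to 6.22, and 17 of them passed the filter, so passing it does not by itself show expression. The keratinocyte genes Krt5 and Itga6 read 13.39 and 12.26 in Sox2cKO cells, against 13.39 and 12.17 in CTRL cells. Of the transcripts of sorted-out cells, Ptprc (CD45) and Pecam1 (CD31) read 5.10 and 4.73 in Sox2cKO cells, against 5.00 and 4.58 in CTRL cells. Pdgfra (CD140a) read 5.49, 6.21 and 7.25 in Sox2cKO cells, against 5.52, 5.32 and 5.05 in CTRL cells, so Sox2cKO replicates 2 and 3 lay above all CTRL arrays. Xist, which female cells express, read 7.54, 6.82 and 6.08 in Sox2cKO cells, against 7.30, 12.03 and 11.85 in CTRL cells. The Y-linked Eif2s3y read 9.52, 9.54 and 9.54 in Sox2cKO cells, against 9.67, 3.72 and 3.45 in CTRL cells. So CTRL replicates 2 and 3 differed from the other 4 arrays in the sex pattern. All Sox2cKO arrays had the male pattern, so differences between the groups cannot be fully told apart from differences of sex.

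Sox2, read by 1 probe set (1416967_at), had values of 4.07, 4.63 and 3.23 in Sox2cKO cells, against 7.19, 8.31 and 8.18 in CTRL cells. The groups did not overlap, and all Sox2cKO values lay below the 40th percentile of their array, so the probe set passed the filter through CTRL alone. The difference of the readings was -3.92 with a standard error of 0.41 (limma, adjusted p = 0.244; unadjusted p = 2.08e-05), which may understate the fall, since the Sox2cKO readings lie near background. The position of this probe set relative to the loxP sites was not looked up. Across all 23534 tested probe sets, limma called 0 at an adjusted p under 0.05 (0%), and 687 had an unadjusted p under 0.05, or 1342 with the replicate number as a block. With no change at all, a share of 0.05 of the tested probe sets would be expected under that unadjusted level. The count without blocks lay below this share, and the count with blocks lay above it. The lowest adjusted p of any probe set was 0.152.

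Pou5f1 and Nanog, the factors at the centre of the pluripotency network, read near background on all 6 arrays. Pou5f1 (1417945_at) had values of 4.12, 4.20 and 3.90 in Sox2cKO cells, against 3.88, 3.87 and 3.98 in CTRL cells. Nanog (1429388_at) had 3.48, 3.38 and 3.51 in Sox2cKO cells, against 3.50, 3.56 and 3.58 in CTRL cells. The groups overlapped for both genes, and every value lay below the 40th percentile of its array. Fitted without the filter, the difference was 0.16 (standard error 0.12) for Pou5f1 and -0.08 (standard error 0.10) for Nanog. The joint site shown above stands before a transcript that read near background both in CTRL cells, which had Sox2 signal, and in Sox2cKO cells.

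Lin28b and Sall4 were likewise dim. Lin28b (1430803_at) had 3.10, 3.11 and 2.95 in Sox2cKO cells, against 3.07, 3.28 and 3.10 in CTRL cells, all below the mean of the unspiked bacterial controls on the same array. Sall4, a zinc finger factor of embryonic stem cells and germ cells, read 4.72, 4.67 and 4.74 in Sox2cKO cells with probe set 1424152_at, against 4.50, 4.57 and 4.95 in CTRL cells. Only CTRL replicate 3 exceeded the 40th percentile of its array there. The second Sall4 probe set (1424153_s_at) lay between 3.97 and 4.20. These 4 genes had no tested probe set, and a transcript below the array's background cannot be told from an absent one.

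Esrrb, an orphan nuclear receptor that sustains self-renewal of mouse embryonic stem cells, had 3 probe sets that did not give the same picture. The one tested (1441921_x_at, a suffix that marks probes which may match other transcripts) read 6.20, 5.98 and 6.36 in Sox2cKO cells, against 6.10, 6.13 and 6.27 in CTRL cells. Its groups overlapped. Its level lay close to the brightest of the other-tissue genes, above it on Sox2cKO replicates 2 and 3 and below it on the other arrays. The other Esrrb probe sets were below the 40th percentile on all arrays. Of these, 1422986_at had 4.41, 4.47 and 4.42 in Sox2cKO cells, against 4.74, 4.71 and 4.57 in CTRL cells, so the groups did not overlap. The difference was -0.24, with a 95% confidence interval from -0.48 to 0.005 in the fit without a filter (limma, adjusted p = 0.9997), in which 2447 of 34945 probe sets (7%) had groups that did not overlap. It was the 1 member probe set of 23 with that pattern, and the third Esrrb probe set (1436926_at) differed by 0.05 the other way.

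Tbx3, a T-box repressor that acts in embryonic stem cells and in limb and mammary development, had 1 tested probe set of 5. That probe set (1448029_at) read 5.17, 5.16 and 5.39 in Sox2cKO cells, against 4.87, 5.35 and 5.57 in CTRL cells. CTRL replicate 1 alone lay below its array's 40th percentile, and the groups overlapped. The 4 others lay between 3.64 and 4.87. On each array, some genes of other tissues read higher than every Tbx3 probe set.

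In all, 10 of the 23 member probe sets passed the filter (43.5%, against 67.3% of all single-gene probe sets), and they belonged to 6 genes. The 13 that did not pass lay between 2.95 and 4.95. On all 6 arrays, 8 probe sets of 4 genes (Klf4, Klf5, Myc and Hmga2) exceeded every probe set of the other-tissue genes on the same array, where the highest read 5.96 to 6.37. Of all 18193 genes, 8836 (48.6%) did so. Brightness depends on the probes as well as on the transcript, so these levels are set against background and not against one another.

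**Figure D2:**
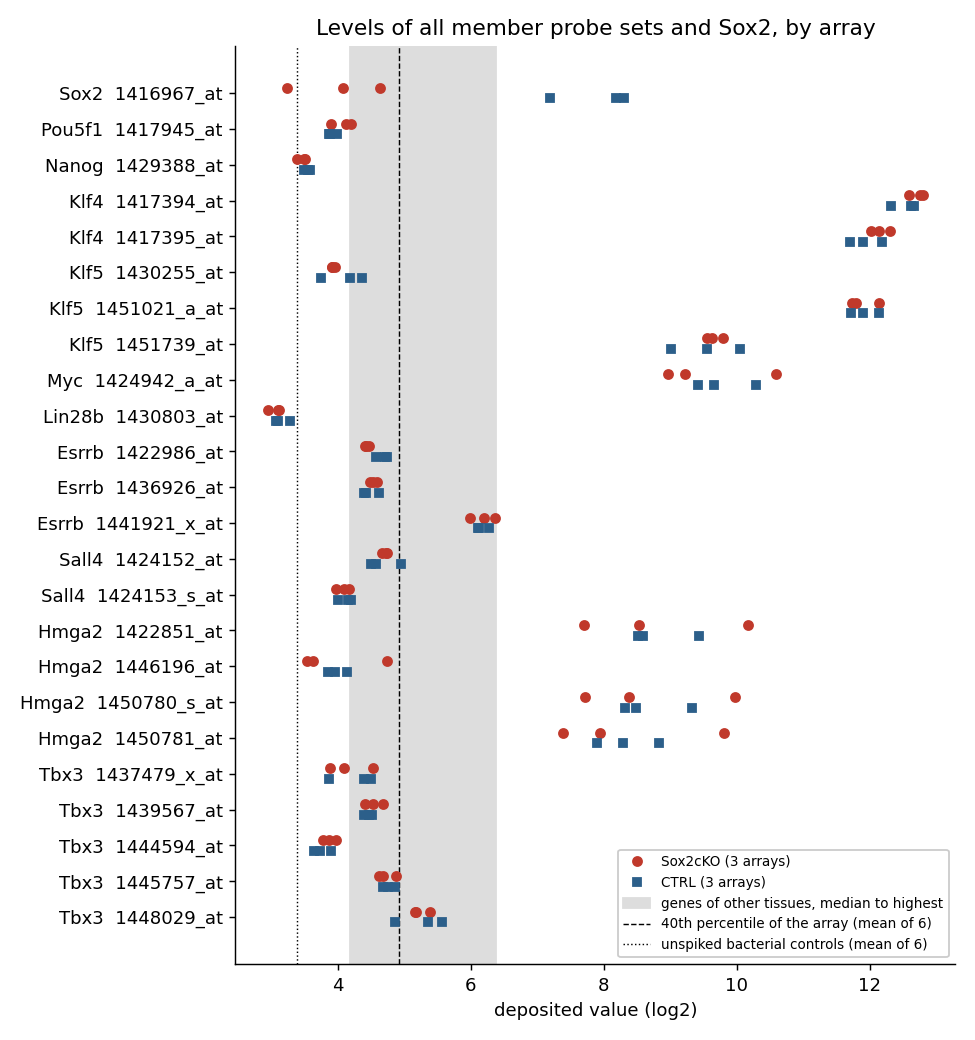
Deposited log2 value (x axis) of each of the 23 member probe sets and Sox2 on every array, Sox2cKO in red above CTRL in blue, with the range of the other-tissue genes from their median to their highest value in grey. Klf4, Klf5, Myc and Hmga2 have probe sets right of the grey range on all 6 arrays, and every other member lies within or left of it.

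Klf4, the zinc finger factor of the suprabasal epidermis that is also 1 of the classical reprogramming factors, was bright in every sample. Probe set 1417394_at read 12.79, 12.59 and 12.75 in Sox2cKO cells, against 12.66, 12.32 and 12.62 in CTRL cells, and 1417395_at read 12.30, 12.01 and 12.14 in Sox2cKO cells, against 12.18, 11.69 and 11.89 in CTRL cells. The groups overlapped in both, with CTRL replicate 2 the lowest array and Sox2cKO replicate 1 the highest. The means were 12.71 ± 0.11 in Sox2cKO cells and 12.53 ± 0.19 in CTRL cells for the first, a difference of 0.18 with a 95% confidence interval from -0.16 to 0.51 (SD, n = 3 each; limma, unadjusted p = 0.252, adjusted p = 0.9998). For the second the difference was 0.23, with an interval from -0.15 to 0.61 (limma, adjusted p = 0.9998). Within same-numbered arrays, Sox2cKO was higher by 0.14, 0.27 and 0.12 for the first and by 0.12, 0.32 and 0.25 for the second. Neither passed the test. The fit that keeps same-numbered arrays together as blocks gave intervals from -0.11 to 0.46 and from -0.06 to 0.52. With the sex pattern of the arrays (Xist) as a covariate the differences were 0.05 and -0.03, and the lower ends of their intervals were -0.46 and -0.53.

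Klf4 has to be read beside the markers of suprabasal keratinocytes, the differentiated layers in which it is known to be expressed. Their level summed over 10 genes on the linear scale was 39997, 37713 and 22857 in Sox2cKO cells, against 36794, 21876 and 25109 in CTRL cells, and 14 of 14 tested probe sets had a higher mean in Sox2cKO cells (median difference 0.45). Among these genes Flg did not pass the filter. The array lowest in Klf4 (CTRL replicate 2) was also the lowest in this sum, and the one highest in Klf4 (Sox2cKO replicate 1) the highest, while Sox2cKO replicate 3 had high Klf4 and a low sum. The part of these cells in the Klf4 values was not tested. In these sorted populations a change in the number of cells of a type and a change in RNA per cell cannot be told apart.

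Klf5, the factor of basal and proliferating epithelia, also lay far above background. Probe set 1451021_a_at read 12.14, 11.72 and 11.79 in Sox2cKO cells, against 12.13, 11.89 and 11.71 in CTRL cells, a difference of -0.03 with a 95% confidence interval from -0.42 to 0.37. A second one, 1451739_at, read 9.79, 9.55 and 9.62 in Sox2cKO cells, against 9.55, 9.00 and 10.04 in CTRL cells, a difference of 0.12 with an interval from -0.47 to 0.71. CTRL replicate 2 was the lowest and CTRL replicate 3 the highest array of this probe set, with the Sox2cKO arrays between them. It did not follow 1451021_a_at over the 6 arrays (r = -0.11). The third Klf5 probe set (1430255_at) was not tested, at 3.75 to 4.36.

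Myc, the basic helix-loop-helix factor that pairs with Max to drive growth genes, was above background on every array and varied between samples of 1 group. Its probe set (1424942_a_at) read 9.22, 10.59 and 8.96 in Sox2cKO cells, against 9.41, 10.29 and 9.65 in CTRL cells. Replicate 2 was the highest array of both groups. The span over the 6 arrays was 1.63, or 3.09-fold, and 3.76% of tested probe sets had a larger one. The means were 9.59 ± 0.87 in Sox2cKO cells and 9.78 ± 0.45 in CTRL cells (SD, n = 3 each), a difference of -0.19 (limma, unadjusted p = 0.665, adjusted p = 0.9998). Its 95% confidence interval, from -1.21 to 0.82, leaves room for a change of more than 2-fold in 1 direction. With the replicate number as a block, the interval ran from -0.72 to 0.33. Replicate 2 was also the highest array of both groups in the summed markers of sebocytes, hair follicle cells and melanocytes. It was not so in those of basal and suprabasal keratinocytes, fibroblasts, leukocytes and endothelium. The part of cell content in the Myc values was not tested.

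Hmga2, a chromatin protein of embryonic and growing tissues whose transcript is a known let-7 target, varied most among the members. Probe set 1422851_at read 8.53, 7.71 and 10.17 in Sox2cKO cells, against 8.59, 8.52 and 9.43 in CTRL cells. Sox2cKO replicate 2 was the lowest and Sox2cKO replicate 3 the highest of the 6, with all CTRL arrays between. The span was 2.46, or 5.51-fold, and 0.977% of tested probe sets had a larger one. The other tested Hmga2 probe sets gave the same order of the extremes: 1450780_s_at ran from 7.71 to 9.98 and 1450781_at from 7.38 to 9.80. The group means of 1422851_at were 8.80 ± 1.25 in Sox2cKO cells and 8.84 ± 0.51 in CTRL cells (SD, n = 3 each), a difference of -0.04 with a 95% confidence interval from -1.41 to 1.33. The differences of 1450780_s_at and 1450781_at were -0.02 and 0.04, and the remaining probe set (1446196_at) was not tested, at 3.54 to 4.75.

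The arrays that set the ends of the Hmga2 range were set beside the content of other cells and beside control probe sets. The summed linear level of 15 fibroblast and pericyte markers was 4891, 7552 and 16211 in Sox2cKO cells, against 4833, 4775 and 2288 in CTRL cells, and 18 of 22 tested probe sets were higher in Sox2cKO cells (median difference 1.08). Fap and Mfap5 did not pass the filter. Sox2cKO replicate 3, the highest in Hmga2, had the highest fibroblast sum, and CTRL replicate 3, the second highest in Hmga2, had the lowest. Sox2cKO replicate 2, the lowest in Hmga2, had the second highest fibroblast sum. The 18S ribosomal control was 10.96, 11.51 and 12.49 in Sox2cKO cells, against 11.58, 11.14 and 11.78 in CTRL cells, again highest in Sox2cKO replicate 3 and next in CTRL replicate 3. It was lowest in Sox2cKO replicate 1 and not in Sox2cKO replicate 2. The polyA spike controls averaged 9.32, 8.40 and 9.19 in Sox2cKO cells, against 7.17, 10.24 and 7.87 in CTRL cells. They were highest in CTRL replicate 2 and lowest in CTRL replicate 1. The part of fibroblast content and of the 18S and spike signals in the Hmga2 values was not tested. Myc was lowest on Sox2cKO replicate 3 and highest on Sox2cKO replicate 2, the reverse of Hmga2 on those arrays.

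**Figure D3:**
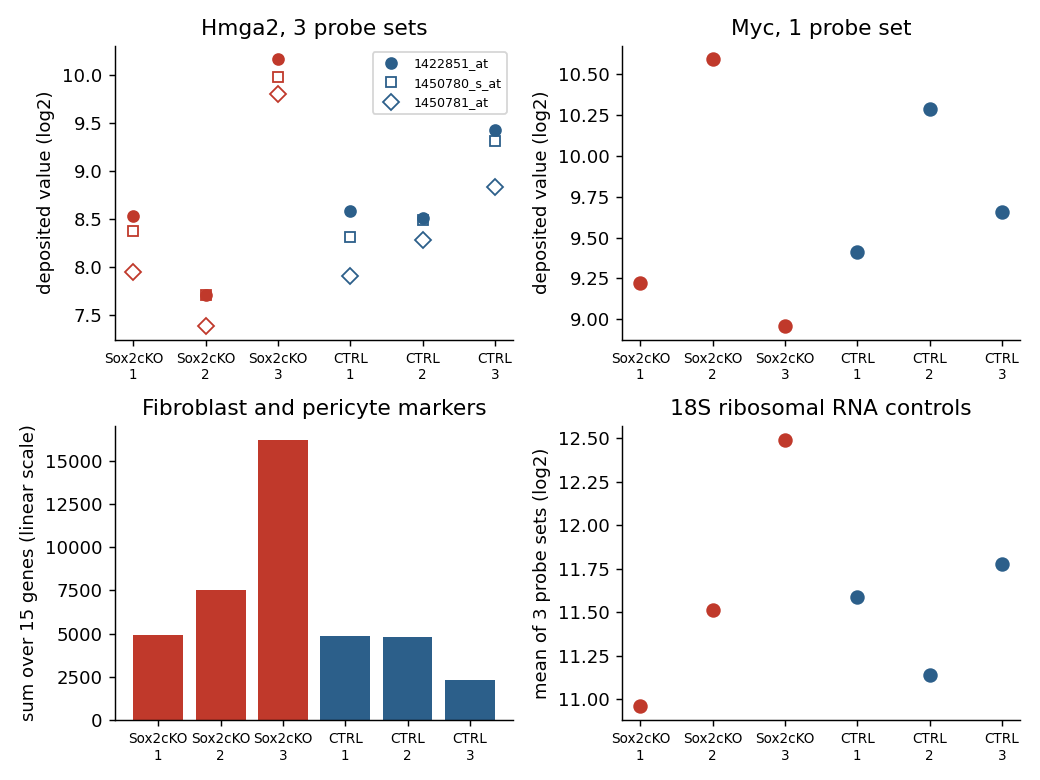
Log2 values of Hmga2 (3 probe sets) and Myc (1 probe set), the summed linear level of fibroblast and pericyte markers (bars from 0) and the mean of the 18S controls (log2), for each array, Sox2cKO in red and CTRL in blue. Sox2cKO replicate 3 is highest in Hmga2, in the fibroblast sum and in 18S, and lowest in Myc.

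Over the 10 tested member probe sets, 5 had a higher and 5 a lower mean in Sox2cKO cells, with a median difference of -0.0025, beside a median of 0.0087 over all 23534 tested probe sets. The largest difference in size was 0.23 (Klf4). By limma, 0 of 10 passed an adjusted p of 0.05 and 0 had an unadjusted p under 0.05, and the lowest unadjusted p was 0.203. With the replicate number as a block in limma, the lowest unadjusted p was 0.0985 (Klf4 1417395_at). None had groups that did not overlap, beside 1473 of 23534 tested probe sets (6.26%). In the fit without blocks or a covariate, the intervals differed in width among the genes. For Klf4 they did not reach beyond 0.61 in size, whereas for Hmga2 and Myc they reached past 1.2.

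**Figure D4:**
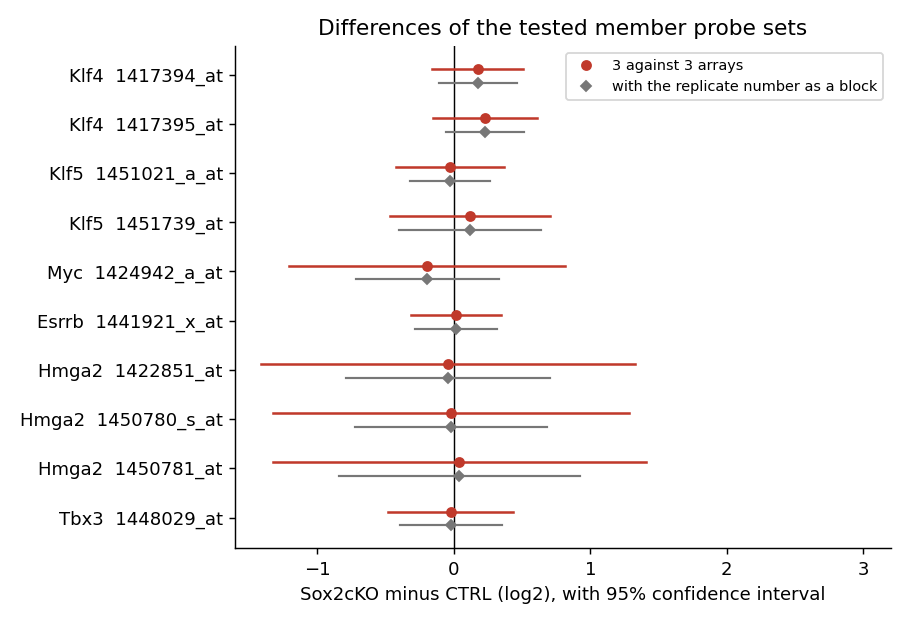
Difference in mean log2 value, Sox2cKO minus CTRL, with its 95% confidence interval (x axis), for each of the 10 tested member probe sets, from 3 against 3 arrays (red) and from the fit that keeps same-numbered arrays together as blocks (grey). Every interval contains 0, and those of Hmga2 and Myc are the widest.

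Related genes were read from lists that named the network around the members. Of 27 other genes of the embryonic stem cell network on the array, 11 had a tested probe set, 13 in all, and 0 were called. The groups did not overlap for 2 of the 13, beside 6.26% of all tested probe sets, and the median difference was 0.10. On all 6 arrays, 4 of the 27 genes exceeded every gene of other tissues, beside 48.6% of all genes. They were Dnmt3l, Esrra, Utf1 and Zfp296, where Utf1 was named after its values were seen. Esrra also stands in the list of paralogs of the members. Zfp296, a zinc finger gene of embryonic stem cells and germ cells, read 8.07, 7.91 and 7.83 in Sox2cKO cells, against 7.36, 7.66 and 7.44 in CTRL cells, with no overlap. Its difference was 0.45 with a standard error of 0.14 (limma, unadjusted p = 0.0131, adjusted p = 0.9998). Dnmt3l, a partner of the DNA methyltransferases in germ cells, read 7.77 ± 0.38 in Sox2cKO cells and 7.03 ± 0.62 in CTRL cells (SD, n = 3 each), and its groups overlapped. Zfp42 and Lin28a, named here after their values were seen, lay between 3.23 and 3.43 and between 3.53 and 4.14.

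**Figure D5:**
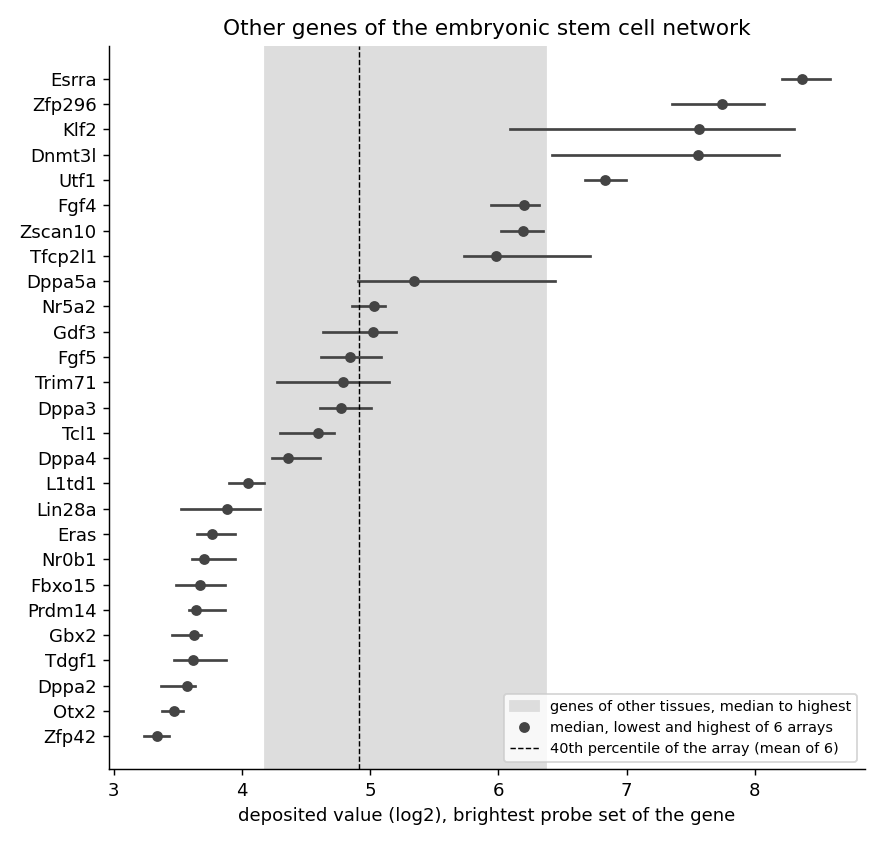
Median, lowest and highest deposited log2 value over the 6 arrays (x axis) for the brightest probe set of each of 27 other genes of the embryonic stem cell network, with the median-to-highest range of the other-tissue genes in grey. Esrra, Zfp296, Dnmt3l and Utf1 lie right of the grey range on all 6 arrays, Klf2 does so on 5, and Zfp42 is the dimmest.

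Among KLF genes other than Klf4 and Klf5, 0 of 33 tested probe sets were called, and 1 (3.03%, beside 6.26% of all tested probe sets) had groups that did not overlap. The genes of other tissues were exceeded on all arrays by 8 of 14 KLF genes, beside 48.6% of all genes. Klf6 read 11.03 ± 0.18 in Sox2cKO cells and 10.77 ± 0.19 in CTRL cells, a difference of 0.26 (SD, n = 3 each). Klf12 and Klf13 differed by -0.16 and 0.17 in probe sets within the range of the other-tissue genes. Their other probe sets went the opposite way, and the brightest Klf13 probe set read 10.04 to 10.59. All 25 MYC target genes, which serve ribosome production, nucleotide synthesis and the cell cycle, exceeded the genes of other tissues on every array, beside 48.6% of all genes. Of their 61 tested probe sets, 21 had a higher and 40 a lower mean in Sox2cKO cells, 0 were called, and 4 (6.56%) had groups that did not overlap, close to the 6.26% of all tested probe sets. The smallest p of the list belonged to a dim probe set of Tfrc, the transferrin receptor. It read 5.64 ± 0.33 in Sox2cKO cells and 5.10 ± 0.33 in CTRL cells (SD, n = 3 each). These values lay within the range of the other-tissue genes. The difference was 0.54 (limma, unadjusted p = 0.0465, adjusted p = 0.9998). The other Tfrc probe sets differed by 0.21 and -0.01, and the brightest of them read 10.44 to 11.17. Ccnd2, a cyclin of the G1 phase, read 9.09 ± 0.49 in Sox2cKO cells and 9.87 ± 0.56 in CTRL cells (SD, n = 3 each), and its groups overlapped. The difference was -0.78 (limma, unadjusted p = 0.0504, adjusted p = 0.9998). On the same arrays, 6 further probe sets of this gene were lower by 0.47 to 0.88. Cdk4, its kinase partner, read 9.62, 9.66 and 9.54 in Sox2cKO cells, against 9.82, 10.22 and 9.81 in CTRL cells, with no overlap and a difference of -0.34 (limma, unadjusted p = 0.0547, adjusted p = 0.9998).

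The partners of Myc had 27 tested probe sets with a median difference of 0.08, of which 0 were called and 0 had groups that did not overlap. Mxd3, which competes with Myc for Max, read 6.09 ± 0.28 in Sox2cKO cells and 6.47 ± 0.31 in CTRL cells (SD, n = 3 each), and its other probe sets differed by -0.31 and -0.33. Mga and Mxi1 differed by 0.37 and 0.36 in the other direction, the other probe sets of Mga by -0.04 and -0.12. The LIN28 and let-7 axis had 22, with a median of -0.02, 0 called and 1 (4.55%) not overlapping. That one was Tut4 (1439631_at), a uridylyl transferase that acts on let-7 precursors. It read 4.99 ± 0.11 in Sox2cKO cells and 5.30 ± 0.14 in CTRL cells (SD, n = 3 each). These values lay within the range of the other-tissue genes. The other Tut4 probe sets differed by -0.01 and -0.14, and the brightest of them read 7.37 to 7.83. Paralogs of the members had 12 tested probe sets, of which 0 were called and 3 (25%) did not overlap, 1 higher and 2 lower in Sox2cKO cells, beside 6.26% of all tested probe sets and 4 of 17 for the genes of other tissues. The higher one was Esrrg, at 5.00, 4.95 and 5.01 in Sox2cKO cells, against 4.82, 4.89 and 4.75 in CTRL cells. All its CTRL values lay below the filter level of their array, so it was tested through the Sox2cKO values alone. Such a passage favours groups that do not overlap. A lower one was Pou3f2, at 5.64, 5.64 and 5.77 in Sox2cKO cells, against 5.91, 5.96 and 5.91 in CTRL cells, within the range of the other-tissue genes. The LIF and STAT3 pathway, the signal that feeds Klf4 in embryonic stem cells, had 29 tested probe sets, of which 0 were called and 0 had groups that did not overlap. Its ligand Lif read 8.92, 8.43 and 10.19 in Sox2cKO cells, against 9.68, 10.12 and 9.76 in CTRL cells, with Sox2cKO replicates 1 and 2 below and Sox2cKO replicate 3 above all CTRL arrays.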

How the data were processed

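The 6 arrays were 3 Sox2cKO and 3 CTRL. Judged by their range, the values the authors deposited are log2 intensities. The submitters' processing notes name R 2.14.0. How background was corrected, probes summarised and arrays normalized is not given in the sources used here. Array medians were nearly equal, so a shift shared by most genes would not be seen. The platform annotation gave 1 gene to 34945 of 45037 mouse probe sets, several to 932 and none to 9160. Differences are Sox2cKO minus CTRL, with two-sided p-values from lmFit and eBayes of limma 3.58.1 (R 4.3.3) over 23534 probe sets of 13222 genes, with Benjamini-Hochberg adjustment and a threshold of 0.05. Members outside the filter were fitted with all 34945. With 3 arrays a group, an exact permutation test cannot go below 0.1, and the number of arrays limits the precision.

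Members, lists and motifs were chosen with earlier results of these data known. Named genes were all members, Sox2, and up to 3 genes of smallest p in each list. Arrays of the same replicate number deviated together (correlations 0.285, 0.225 and 0.216, against -0.309 to 0.037 for other pairs of opposite groups). A fit with the number as a block was therefore run beside the main fit, which ignores the numbers. Printed intervals and p-values come from fits without blocks unless the block is named. The design text speaks of 3 biological experiments. The fit was tested on simulated data. Alternatives changed the filter, floor, normalization, variance prior, block, sex pattern and replicates.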

Additional observations from a re-analysis of the deposited data

How the results depend on the processing

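With 3 arrays a group, the count of called probe sets was 0 under every alternative run, with these exceptions: with the Xist pattern as a covariate it was 1 (Ostf1), and over the fits that left out 1 array it ran from 0 to 5, the 5 probe sets (of Xist, Eif2s3y, Kdm5d and Uty) without CTRL replicate 1. The counts for the members and for the other lists were 0 throughout, and the replicate block changed no call. Between 9 and 15 member probe sets passed the level filter under its alternatives, 10 being the count reported.

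Of 135 member differences under alternatives, 26 changed sign, and 0 of the 135 passed the threshold (lowest adjusted p over all 135, 0.809). With the Xist pattern as a covariate, the differences that changed sign were -0.032 for Klf4 1417395_at, 0.18 for Myc, 0.37 for Tbx3, and 0.22 (1422851_at) and 0.37 (1450780_s_at) for Hmga2. Those that kept their sign were 0.48 for Hmga2 1450781_at, -0.25 for Klf5 1451021_a_at, 0.10 for Klf5 1451739_at, 0.053 for Klf4 1417394_at and 0.081 for Esrrb. Leaving out 1 array gave -0.73 to 0.50 for Hmga2 1422851_at, -0.67 to 0.47 for 1450780_s_at and -0.67 to 0.54 for 1450781_at, the lowest without Sox2cKO replicate 3 and the highest without Sox2cKO replicate 2. It gave 0.070 to 0.24 for Klf4 1417394_at and 0.11 to 0.36 for 1417395_at, both lowest without CTRL replicate 2, -0.69 to 0.12 for Myc, -0.15 to 0.083 for Klf5 1451021_a_at, -0.14 to 0.37 for Klf5 1451739_at, -0.074 to 0.12 for Esrrb 1441921_x_at and -0.22 to 0.13 for Tbx3 1448029_at. The cause was not tested. Probe sets near background cannot show a fall.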

Other observations

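For the tested member probe sets that spanned at least 1 log2 unit over the 6 arrays, the genes with the most similar profile were sought among 13219 genes, as a description over 6 arrays that share their normalization. For Hmga2 1422851_at they were Slc25a4, the mitochondrial ADP/ATP carrier (r = 0.994), Esam, an adhesion molecule of endothelium (0.993), and Zfp763 (0.989), and 190 genes reached 0.9. Esam read 5.88 to 6.44 and Zfp763 4.99 to 5.38, within or close to the range of the other-tissue genes. For 1450781_at the first was S100a6, a calcium-binding protein, which read 12.83, 12.68 and 13.23 in Sox2cKO cells, against 12.80, 12.90 and 12.95 in CTRL cells. For Myc they were Lppos (0.997), Uhrf1bp1 (0.996) and Nsmf (0.994), and 406 genes reached 0.9. Lppos read 5.24 to 5.74, within the range of the other-tissue genes. For Klf5 1451739_at they were Rasgrp4 (5.04 to 5.44), Ccdc114 (5.54 to 5.88) and Wbp2nl (5.70 to 6.30), and 136 genes reached 0.9. Their levels lay within or close to the range of the other-tissue genes. The brighter Klf5 probe set 1451021_a_at did not share this profile (r = -0.11 with 1451739_at).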
